A study of Caenorhabditis elegans with 8 samples.

Results

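The genes described here encode the 2 routes by which Caenorhabditis elegans breaks down propionate, a short-chain acid made when the cell degrades certain amino acids and odd-chain fatty acids. They are the 4 genes of the propionate shunt (acdh-1, ech-6, hphd-1 and alh-8) and 5 genes of the canonical, vitamin B12-dependent pathway (pcca-1, pccb-1, mce-1, mmcm-1 and mmaa-1). The members were chosen by name: a probe set counted when its platform annotation gave 1 symbol and that symbol was a member, with hphd-1 also known by its sequence name Y38F1A.6. This gave 13 probe sets of 9 genes, 5 for the shunt and 8 for the canonical pathway, of 22548 probe sets and 17118 genes on the array. Total RNA of whole adult animals was hybridised to 8 arrays, 1 for each combination of strain and food. The fasting groups and then the fed groups were of the strains drsh-1(ok369), ain-1(tm3681), daf-16(mu86) and wild type (N2). Animals of all groups were kept at 20 °C and were on plates with FUDR, a drug that blocks the production of progeny. On day 2 they were moved to plates that lacked bacteria (fasting) or carried killed OP50 bacteria (fed), and they were collected as adults of day 4. The mutations are present in the whole animal. DRSH-1, the worm Drosha, trims newly made microRNA precursors in the nucleus. AIN-1 belongs to the GW182 proteins, through which microRNAs silence their targets, and DAF-16 is a FOXO protein that insulin signalling keeps out of the nucleus. The series asks what part the microRNA machinery plays in the transcript changes of fasting and in longevity.

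In the canonical pathway, propionyl-CoA carboxylase, made of the subunits PCCA-1 and PCCB-1, adds a carboxyl group to propionyl-CoA. The epimerase MCE-1 and the mutase MMCM-1 then turn the product into succinyl-CoA, which enters the citric acid cycle. The mutase needs a form of vitamin B12, and MMAA-1 is the GTPase that serves the mutase with this cofactor. In the shunt, the acyl-CoA dehydrogenase ACDH-1 oxidises propionyl-CoA, the hydratase ECH-6 adds water, and the dehydrogenase HPHD-1 makes malonic semialdehyde from the freed acid. ALH-8 then converts malonic semialdehyde to acetyl-CoA. In C. elegans the shunt is transcriptionally activated when vitamin B12 is low and propionate builds up, through the nuclear hormone receptors NHR-10 and NHR-68, and a reporter of acdh-1 is widely used as a sensor of bacterial diet.

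Values are array intensities on a linear scale, as deposited, with array medians between 35.1 and 37.7. Differences are on the scale of log2(intensity + 16), so for dim genes they are smaller than the true change. All 13 probe sets passed a filter that left out the 30% of probe sets with the lowest mean, so 15783 were tested. Each gene is represented by its probe set with the highest mean. With 1 array in each group there were no replicates, and strains stood in for replicates in the tests of food. The p-values thus measure only the spread of these 8 arrays around a model that adds a strain and a food effect, and this spread may in part be technical. In these fits by limma, the spread of each probe set was drawn toward a trend over all probe sets tested (3.70 prior beside 3 residual degrees of freedom). For acdh-1 this made the SE smaller than its own residual SD would give. Of the 2 drsh-1 probe sets, 1 read 17.1 fasting and 14.0 fed in drsh-1 animals, against 185 and 183 in wild type. The other went the opposite way, at 357 fasting and 397 fed in drsh-1 animals, against 68.8 and 68.7 in wild type. Of the 4 daf-16 probe sets, 1 read 8.98 fasting and 9.27 fed in daf-16 animals, against 69.5 and 76.4 in wild type. The other 3 had signal in daf-16 animals, between 106 and 311, against 266 to 415 in wild type. Signals of the 3 ain-1 probe sets were alike in fasting ain-1 animals and fasting wild type (106 to 229 against 109 to 237). In fed ain-1 animals all 3 read lower, at 99.6, 123 and 56.1 against 132, 171 and 63.8 in fed wild type. The place of the probes in each gene was not known here. The array of fasting daf-16 animals stood apart on control probe sets. Its catalase signal at the 3' end was 3.40 times that at the 5' end, against 1.47 to 1.79 on the other 7 arrays, and a spiked-in dap control read 178, against 70.1 to 91.8.

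The first gene of the shunt was lower in fasting animals of every strain. For acdh-1, intensity in fasting animals was 28.6 in drsh-1, 44.5 in ain-1, 246 in daf-16 and 367 in wild type. In fed animals it was 307 in drsh-1, 1196 in ain-1, 896 in daf-16 and 1947 in wild type. The lowest fed value, that of drsh-1, lay below the highest fasting value, that of wild type, so the 2 sets of arrays overlapped although each strain moved the same way. Fed animals had 10.7 times the fasting intensity in drsh-1, 26.9 times in ain-1, 3.64 times in daf-16 and 5.31 times in wild type. Over the 4 strains acdh-1 fell with a log2 change of -2.84 ± 0.38 (SE, limma, adjusted p = 0.0156), a 7.14-fold change on that scale. It was the only one of the 9 genes to pass in this comparison, in which 3.26% of all probe sets tested were called, 2.86% lower and 0.405% higher. The call had an adjusted p of 0.072 by limma without the wild-type pair of arrays (-2.99 ± 0.45) and of 0.05004, just over the threshold, without the daf-16 pair (-3.18 ± 0.38).

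Within single strains the fall of acdh-1 ranked among the largest on the array, as a description with no test. Counted from the lowest change among 15783 probe sets, it was at place 19 in drsh-1, 9 in ain-1, 194 in daf-16 and 113 in wild type. The 8 arrays in order of acdh-1 intensity were fed wild type, fed ain-1, fed daf-16, fasting wild type, fed drsh-1, fasting daf-16, fasting ain-1 and fasting drsh-1. The residual SD of acdh-1 was 0.77, which gives a difference of 2 arrays an SD of 1.08 on the log2 scale. Between neighbours in this order, the step from fed daf-16 to fasting wild type (1.25) and the step from fasting daf-16 to fasting ain-1 (2.11) exceeded 1.08. The other neighbours did not differ beyond that spread. The intensity of fasting drsh-1 animals, 28.6, was close to the filter level of 15.8, so the added 16 makes that log2 change smaller.

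**Figure D1:**
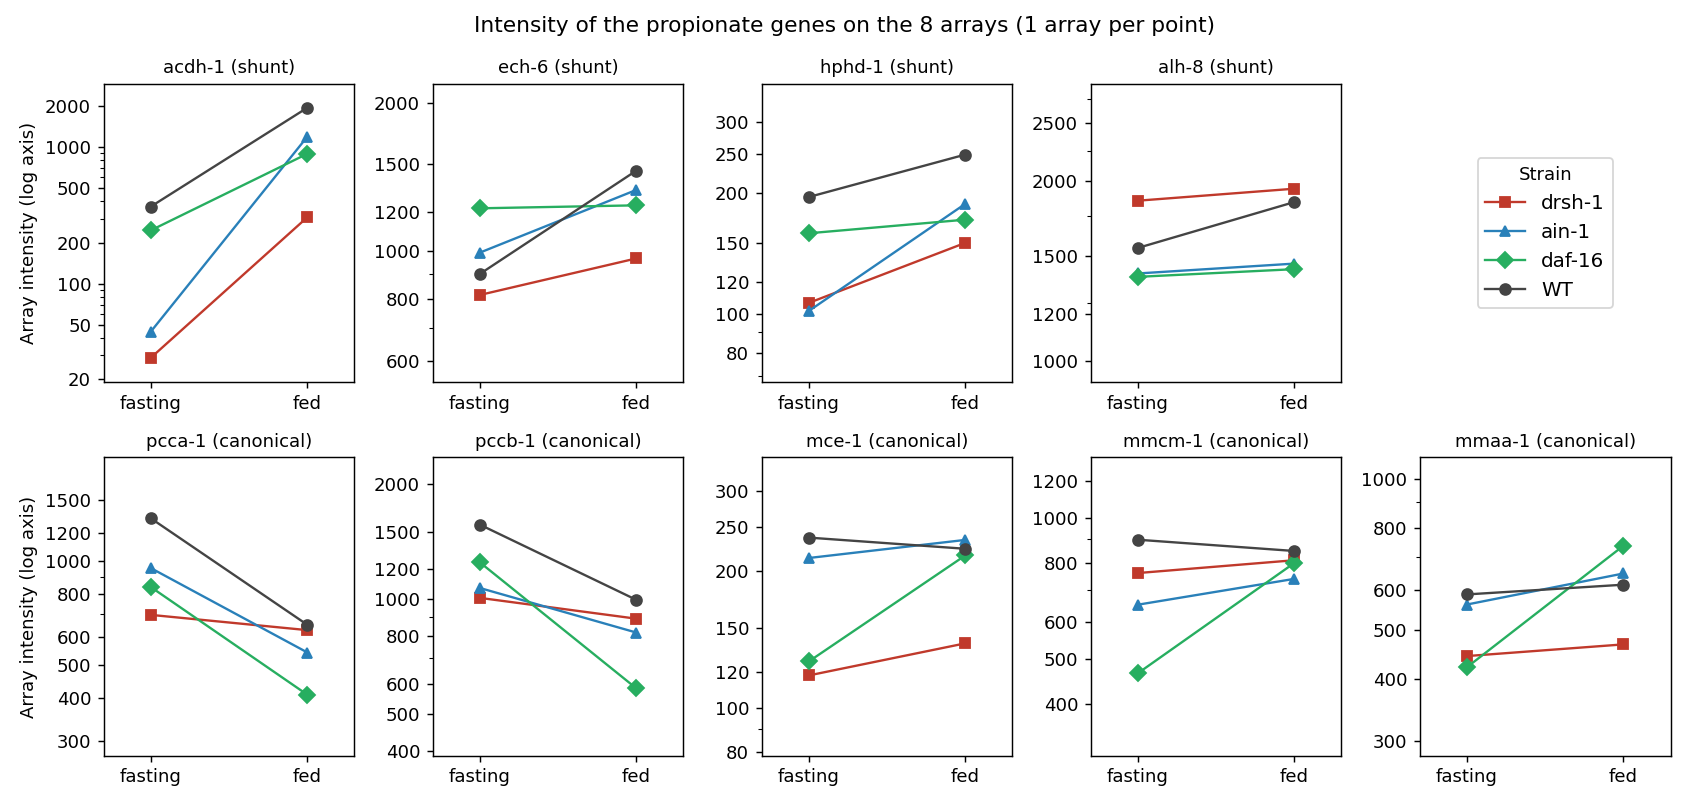
Array intensity (log axis, with a separate range in each panel) of the 9 genes, with fasting on the left and fed on the right of each panel and a line joining the 2 arrays of a strain. The acdh-1 points lie between 28.6 and 367 in fasting animals and between 307 and 1947 in fed animals, while pcca-1 and pccb-1 slope the other way.

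Genes of intestine, the tissue in which the shunt reporter is best known, also moved with food. Of 12 intestinal markers measured (opt-2 was not matched), 6 were called lower in fasting by limma and 0 higher, and their median log2 changes were -0.54 in drsh-1, -0.64 in ain-1, -0.68 in daf-16 and -0.95 in wild type. Their summed intensity was 5150 to 12682 in fasting animals and 7809 to 14622 in fed animals. Of the 6 called markers, the largest falls were in the P-glycoprotein gene pgp-1 (-2.10), the intermediate filament gene ifb-2 (-1.66) and ifc-2 (-1.60). The others were the microvillar actin gene act-5 (-1.56), cpr-6 (-1.23) and the esterase gene ges-1 (-0.67). Median changes were -0.30 over 9 hypodermal markers (2 lower), -0.65 over 8 markers of body wall muscle (4 lower), -0.35 over 10 of germline and -0.01 over 8 of neurons (0 called in both). In whole animals, fewer cells of a type and less RNA per cell cannot be told apart. None of these 47 markers was listed at 0 on any array, and their part in the change of acdh-1 was not tested.

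The other shunt genes had changes of the same sign but of much smaller size, and none of them passed the test. For ech-6, intensity in fasting animals was 815 in drsh-1, 993 in ain-1, 1221 in daf-16 and 899 in wild type. In fed animals it was 967 in drsh-1, 1331 in ain-1, 1238 in daf-16 and 1456 in wild type. Wild type thus showed the widest gap, and the 2 daf-16 arrays were nearly level. The log2 change of ech-6 over the strains was -0.34 ± 0.13 (limma, adjusted p = 0.13).

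For hphd-1, intensity in fasting animals was 106 in drsh-1, 102 in ain-1, 159 in daf-16 and 195 in wild type. In fed animals it was 150.2 in drsh-1, 188 in ain-1, 171 in daf-16 and 249 in wild type. Fasting was lower within each strain, but fasting wild type was above 3 of the 4 fed arrays. The log2 change of hphd-1 was -0.42 ± 0.14 (limma, adjusted p = 0.12). Its second probe set was near the filter level on all arrays, between 12.5 and 20.0, with a log2 change of -0.11 ± 0.04 that did not pass.

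For alh-8, intensity in fasting animals was 1856 in drsh-1, 1401 in ain-1, 1383 in daf-16 and 1546 in wild type. In fed animals it was 1944 in drsh-1, 1456 in ain-1, 1425 in daf-16 and 1846 in wild type. Strains differed more than foods did, and only wild type had a visible step. The log2 change of alh-8 was -0.10 ± 0.08 (limma, adjusted p = 0.44). At an unadjusted p under 0.05, 3 of the 4 shunt genes passed (acdh-1, ech-6 and hphd-1), where 30.1% of all probe sets did. All 4 shunt genes were lower in fasting in each of the 4 strains, which held for 18.2% of the probe sets tested.

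The carboxylase that opens the canonical pathway had the opposite sign. For pcca-1, the alpha subunit, intensity in fasting animals was 697 in drsh-1, 953 in ain-1, 840 in daf-16 and 1327 in wild type. In fed animals it was 630 in drsh-1, 543 in ain-1, 409 in daf-16 and 652 in wild type. Every fasting array lay above every fed array, and the step was 1.11-fold in drsh-1, 1.76-fold in ain-1, 2.05-fold in daf-16 and 2.03-fold in wild type. The second pcca-1 probe set gave 0.964-fold in drsh-1, 1.60-fold in ain-1, 2.11-fold in daf-16 and 1.87-fold in wild type.

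For pccb-1, the beta subunit, intensity in fasting animals was 1008 in drsh-1, 1070 in ain-1, 1249 in daf-16 and 1568 in wild type. In fed animals it was 889 in drsh-1, 817 in ain-1, 583 in daf-16 and 995 in wild type. Again the fasting arrays all lay above the fed arrays, by a narrow margin between fasting drsh-1 and fed wild type. Such a separation upward was found for 4.53% of all probe sets tested. The second probe sets of both genes lacked it. Fasting drsh-1 animals read 597 against 619.7 in fed drsh-1 for pcca-1, and 64.5 against 81.3 in fed wild type for pccb-1. Over the 4 strains the log2 change was 0.74 ± 0.16 for pcca-1 (limma, adjusted p = 0.063) and 0.57 ± 0.15 for pccb-1 (adjusted p = 0.080), so neither passed the test. The dimmer pccb-1 probe set, between 52.2 and 91.9, had 0.23 ± 0.12. By the brighter probe sets both genes were higher in fasting in each of the 4 strains, as were 19.9% of all probe sets. None of the 9 genes had all fasting arrays below all fed arrays, which 4.81% of all probe sets had.

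The carboxylase values turned on the drsh-1 pair. Without it, pcca-1 rose by 0.94 ± 0.11 (limma, adjusted p = 0.0035) and pccb-1 by 0.70 ± 0.15 (adjusted p = 0.022) over ain-1, daf-16 and wild type. In that fit 23.9% of all probe sets were called in either direction, so calls were common. Without the daf-16 pair the changes were 0.65 ± 0.18 and 0.40 ± 0.12 (limma, adjusted p = 0.20 and 0.21).

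The 3 genes of the methylmalonyl-CoA steps were near level in 3 strains and lower in fasting daf-16 animals. For mce-1, intensity in fasting animals was 118 in drsh-1, 213 in ain-1, 126 in daf-16 and 237 in wild type, against 139 in drsh-1, 234 in ain-1, 216 in daf-16 and 224 in wild type when fed. For mmcm-1 it was 762 in drsh-1, 652 in ain-1, 465 in daf-16 and 898 in wild type fasting, against 811, 740.3, 801 and 849 in the same strains fed. For mmaa-1 it was 444 in drsh-1, 562 in ain-1, 421 in daf-16 and 589 in wild type fasting, against 468, 648, 737 and 616 in the same strains fed. Fasting daf-16 animals were at 0.585 times the fed intensity for mce-1, 0.580 times for mmcm-1 and 0.572 times for mmaa-1, while the other strains lay between 0.850 and 1.06 times. The second probe set of mmcm-1 was at 0.456 times in daf-16. Drops of this size were not rare in that strain. Of all probe sets tested, 10.6% had a lower change in daf-16 than mce-1, 9.28% than mmcm-1 and 8.78% than mmaa-1. Over the 4 strains the log2 changes were -0.24 ± 0.15 for mce-1, -0.24 ± 0.15 for mmcm-1 and -0.28 ± 0.15 for mmaa-1 (limma, adjusted p = 0.33, 0.32 and 0.24). These drops rest on the fasting daf-16 array, which stood apart on control probe sets, and the part of array quality in them was not tested.

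Set side by side, the shunt and the canonical pathway had different medians in wild type and ain-1, closer medians in drsh-1, and medians in the opposite order in daf-16. In drsh-1 the median log2 change was -0.34 over the 4 shunt genes and -0.07 over the 5 canonical genes, and in ain-1 it was -0.60 and -0.12. In daf-16 it was -0.07 for the shunt and -0.71 for the canonical pathway, and in wild type it was -0.51 and 0.08. The daf-16 medians also use the fasting daf-16 array that stood apart on control probe sets. All probe sets tested had a median of 0.00 in drsh-1, 0.02 in ain-1, -0.01 in daf-16 and 0.02 in wild type. The medians hide a division inside each pathway. The fall of acdh-1 was at least 1.80 in every strain, while the other 3 shunt genes lay between -0.79 and -0.02. In the canonical pathway the brighter probe sets of the 2 carboxylase subunits were higher in every strain (0.14 to 1.08). The second pcca-1 probe set was at -0.05 in drsh-1. The 3 later genes lay between -0.78 and 0.08.

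A change of at least 2-fold on the log2(intensity + 16) scale was seen in 7 of the 36 pairs of gene and strain. It was a lower value of acdh-1 in all 4 strains, a higher pcca-1 in daf-16 and wild type, and a higher pccb-1 in daf-16. The pcca-1 values, 1.01 in both strains, were just over the cut of 1. Values in daf-16 use the fasting daf-16 array, which stood apart on control probe sets, and the part of array quality was not tested. Of all probe sets, the share at least 2-fold lower was 1.04% in drsh-1, 3.49% in ain-1, 5.01% in daf-16 and 3.36% in wild type. The share at least 2-fold higher was 0.0317% in drsh-1, 2.73% in ain-1, 7.17% in daf-16 and 2.58% in wild type.

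**Figure D2:**
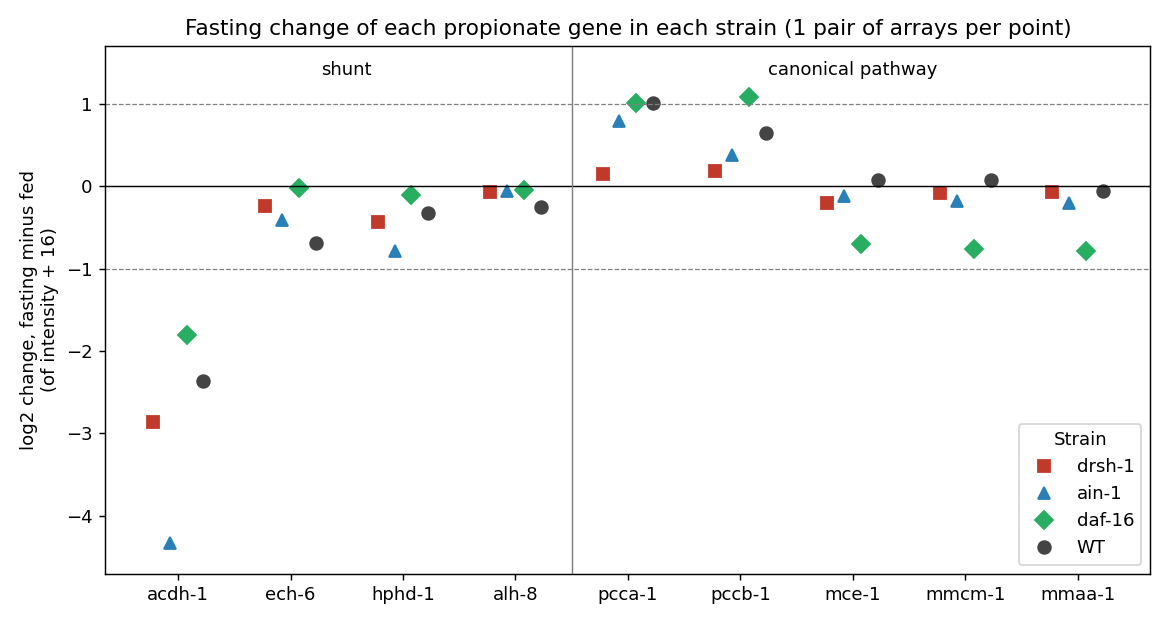
Change in log2(intensity + 16), fasting minus fed, of each gene in each strain, with 1 pair of arrays per point, a solid line at 0 and dashed lines at 1 and -1. The acdh-1 points lie between -4.33 and -1.80, the pcca-1 and pccb-1 points between 0.14 and 1.08, and the daf-16 points of mce-1, mmcm-1 and mmaa-1 between -0.78 and -0.71.

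Mutants were then compared with wild type, with food as a block. The drsh-1 animals had less acdh-1 than wild type with either food, at 28.6 fasting and 307 fed against 367 and 1947 in wild type. Wild type thus had 12.8 times the intensity of drsh-1 when fasting and 6.34 times when fed. The log2 change was -2.85 ± 0.53 (limma, adjusted p = 0.0202), a 7.22-fold change on that scale, in a comparison where 3.74% of all probe sets were called lower and 8.04% higher. Leaving out either wild-type array or either drsh-1 array ended the call (limma, adjusted p between 0.057 and 0.174), with log2 changes of -3.17 and -2.53 without the fed and the fasting wild-type array, and of -2.87 and -2.84 without the fed and the fasting drsh-1 array.

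No other member passed in drsh-1. The nearest were hphd-1 at -0.73 ± 0.20 and mce-1 at -0.77 ± 0.22 (limma, adjusted p = 0.065 and 0.066). For mce-1 the 2 drsh-1 arrays, at 118 and 139, lay below both wild-type arrays, at 237 and 224, and the same held for hphd-1. It also held for acdh-1, and for mmcm-1 and mmaa-1, which were further from passing (limma, adjusted p = 0.69 and 0.27). The share of all probe sets with such a separation was not counted. Both hphd-1 and mce-1 passed under quantile normalization, with -0.85 and -0.90 (limma, adjusted p = 0.043 and 0.040). They also passed when either daf-16 array was left out of the fit (limma, adjusted p = 0.043 for hphd-1 and at most 0.026 for mce-1). Over all probe sets, 1178 were called higher and 701 lower under quantile normalization, against 1269 and 590 in the main fit. Without the fasting or the fed daf-16 array, 1674 were called higher in each case, and 844 and 848 lower, so calls were more common. By the brighter probe sets the carboxylase genes were close to wild type when fed (0.965 times for pcca-1 and 0.893 times for pccb-1). When fasting they were lower (0.525 and 0.643 times). The second pcca-1 probe set was at 1.06 times when fed and 0.545 times when fasting. That of pccb-1 was about equally low with either food, at 0.691 times when fed and 0.702 times when fasting. Over both foods the brighter probe sets had -0.48 ± 0.23 for pcca-1 and -0.40 ± 0.22 for pccb-1. The last shunt gene, alh-8, was the only member with a positive value in drsh-1 (0.17 ± 0.12). Intestinal markers also differed in drsh-1: 3 of 12 were called lower and 0 higher (ges-1 at -1.38, the protease gene asp-1 at -1.17 and pgp-1 at -0.90), with a median of -0.32. Of 8 markers of body wall muscle, 3 were lower (among them the troponin T gene tnt-2 at -1.45) and 1 was higher (the myosin gene myo-3 at 0.85), with a median of -0.54. Of 9 hypodermal markers, 2 were lower (the cuticle collagen genes col-19 at -2.24 and col-12 at -0.996) and 0 higher, with a median of -0.24. Of 10 germline and 8 neuronal markers, 1 each was higher and 0 lower, with medians of 0.18 and 0.28. The part of these tissues in the lower acdh-1 was not tested.

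In ain-1 and daf-16 animals none of the 9 genes differed from wild type by limma at an adjusted p under 0.05. In ain-1, acdh-1 was at 0.121 times the wild-type intensity when fasting and 0.615 times when fed (-1.68 ± 0.53, adjusted p = 0.66), and hphd-1 at 0.521 and 0.755 times (-0.61 ± 0.20, adjusted p = 0.69). At an unadjusted p under 0.05, these 2 of the 9 passed, where 5.85% of all probe sets did and 0.0507% were called after adjustment (0.0444% lower and 0.00634% higher). In daf-16, acdh-1 was at 0.670 times wild type when fasting and 0.460 times when fed (-0.83 ± 0.53, adjusted p = 0.69). The carboxylase genes had -0.65 ± 0.23 for pcca-1 and -0.54 ± 0.22 for pccb-1 (limma, adjusted p = 0.52 and 0.57). These were the 2 of 9 with an unadjusted p under 0.05, where 8.76% of all probe sets passed and 0 were called. The 3 mutants share the wild-type arrays, so a high or low wild-type value enters each of these differences. In 5 of the 9 genes (acdh-1, hphd-1, pcca-1, pccb-1 and mmcm-1) all 3 mutants lay below wild type with either food. This held for 6.69% of all probe sets. The second probe sets of hphd-1 and pccb-1 had it too. Those of pcca-1 (1.06 times wild type in fed drsh-1) and mmcm-1 (1.10 times in fed daf-16) lacked it.

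**Figure D3:**
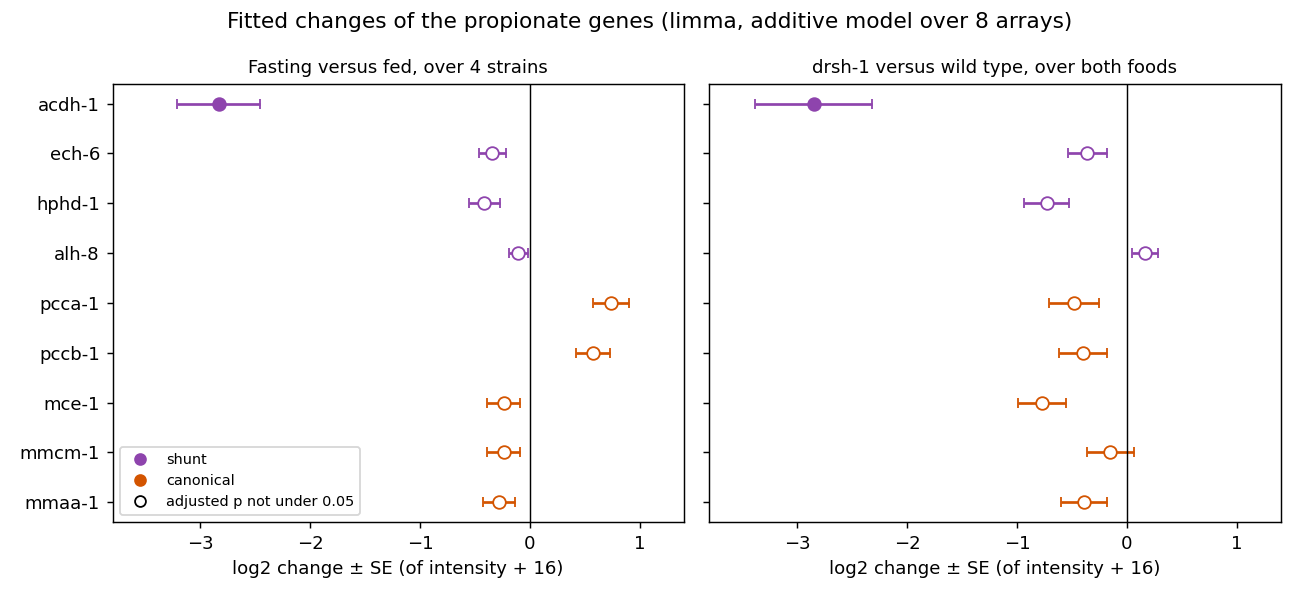
Log2 change ± SE of log2(intensity + 16) by limma over the 8 arrays, for fasting versus fed over the 4 strains (left) and for drsh-1 versus wild type over both foods (right), with filled points for an adjusted p under 0.05. In both panels the acdh-1 point, at -2.84 and -2.85, is the one that is filled, and pcca-1 and pccb-1 have positive values in the left panel.

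Whether a strain responded to fasting differently from the mean of the other 3 was tested in a model with 2 residual degrees of freedom. By limma, 0 of the 9 genes passed in any strain, and 0 probe sets of the whole table did. At an unadjusted p under 0.05, the only members were acdh-1 in ain-1 (-1.99 ± 0.46), pcca-1 in drsh-1 (-0.79 ± 0.21), and mce-1 (-0.62 ± 0.22), mmcm-1 (-0.70 ± 0.19), mmaa-1 (-0.67 ± 0.18) and pccb-1 (0.68 ± 0.23) in daf-16. That was 1 of 9 in drsh-1, 1 of 9 in ain-1, 4 of 9 in daf-16 and 0 of 9 in wild type. Of all probe sets, 13.6% reached it in drsh-1, 1.10% in ain-1, 14.5% in daf-16 and 1.03% in wild type. The differences between strains in the size of these responses thus stand as values that did not pass a test.

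The reactions around both routes were read from lists of genes. Of 14 genes of branched-chain amino acid breakdown, a source of propionyl-CoA, 1 fell in fasting and 0 rose, with a median log2 change of -0.25. The gene that fell was bcat-1, the branched-chain aminotransferase (-1.17 ± 0.17, limma, adjusted p = 0.021). Its intensity in fasting animals was 373 in drsh-1, 234 in ain-1, 256 in daf-16 and 214 in wild type, and in fed animals 551, 646, 636 and 626 in the same order. The values of ard-1, a dehydrogenase of isoleucine breakdown (0.39 ± 0.12), of dbt-1, a subunit of the branched-chain ketoacid dehydrogenase (-0.36 ± 0.15), and of mccc-1, a subunit of methylcrotonyl-CoA carboxylase (-0.32 ± 0.16), did not pass. Nor did hach-1 (-0.24 ± 0.10), the hydrolase that acts between ECH-6 and HPHD-1 in the shunt. The list also named tag-173, mccc-2 and hmgl-1, which were not matched to a probe set.

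Of 16 genes of the methionine cycle and of vitamin B12 handling, 1 fell and 0 rose, with a median of 0.02. It was cth-2, a cystathionine gamma-lyase, whose reaction yields a precursor of propionyl-CoA (-1.31 ± 0.18, limma, adjusted p = 0.017). Its intensity in fasting animals was 315 in drsh-1, 344 in ain-1, 367 in daf-16 and 345 in wild type, and in fed animals 534, 1196, 839 and 1083 in the same order. The fasting arrays were thus nearly equal, and fed drsh-1 animals lay below the other fed strains. The cystathionine beta-synthase gene cbs-1 (0.85 ± 0.18), the exporter gene mrp-5 (0.58 ± 0.18) and the S-adenosylmethionine synthetase gene sams-5 (0.43 ± 0.12) did not pass (limma, adjusted p = 0.060, 0.099 and 0.081). The methionine synthase gene metr-1, whose enzyme is the other user of vitamin B12, had -0.20 ± 0.12. In drsh-1 against wild type, chosen after their values were seen, pmp-5, which encodes a peroxisomal-type ABC transporter, was lower (-1.52 ± 0.19, limma, adjusted p = 0.006). The methionine synthase reductase gene mtrr-1 was higher in drsh-1 (0.82 ± 0.15, limma, adjusted p = 0.018). Of these 16 genes, 1 was thus called higher and 1 lower in drsh-1, where 8.04% of all probe sets were called higher and 3.74% lower.

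None of the 5 regulators changed with fasting by limma at an adjusted p under 0.05. The activator gene nhr-10 had 191 in drsh-1, 234 in ain-1, 265 in daf-16 and 194 in wild type when fasting, against 152, 123, 125 and 108 in the same strains fed. Its log2 change, 0.72 ± 0.15 (adjusted p = 0.053), thus had the sign opposite to that of acdh-1. Its partner nhr-68 had 31.9 in drsh-1, 77.5 in ain-1, 81.5 in daf-16 and 102 in wild type when fasting, against 66.3, 100.5, 90.0 and 103 in the same strains fed. It had -0.31 ± 0.15 with fasting (limma, adjusted p = 0.22). It was lower in drsh-1 than in wild type (-0.92 ± 0.21, limma, adjusted p = 0.040), the 1 of the 5 called there. In that comparison 3.74% of all probe sets were called lower and 8.04% higher. The receptor gene nhr-114 (0.10 ± 0.13) and the Mediator subunit gene mdt-15 (0.03 ± 0.11) had small values with fasting.

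Genes of the other routes to malonic semialdehyde, by pyrimidine and beta-alanine breakdown, had 0 of 5 called, with a median of 0.22 and the highest value in upb-1, the beta-ureidopropionase gene (0.54 ± 0.17). The D-2-hydroxyglutarate dehydrogenase gene dhgd-1, whose enzyme takes back the D-2-hydroxyglutarate that HPHD-1 makes in C. elegans, had -0.30 ± 0.15. In the enzyme families of the shunt, 0 of 9 other acyl-CoA dehydrogenase genes, 0 of 9 other ech genes and 0 of 11 other alh genes passed in fasting. Among the dehydrogenases the values with the largest size were those of acdh-7 (0.80 ± 0.27) and acdh-2 (-0.52 ± 0.11, limma, adjusted p = 0.061), with acdh-5 and acdh-6 below the filter. Intensity of acdh-2 was at most 63.3, so its change is limited by the pseudocount. Among the aldehyde dehydrogenases the values ran from -0.54 ± 0.15 in alh-6 to 0.75 ± 0.27 in alh-13.

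**Figure D4:**
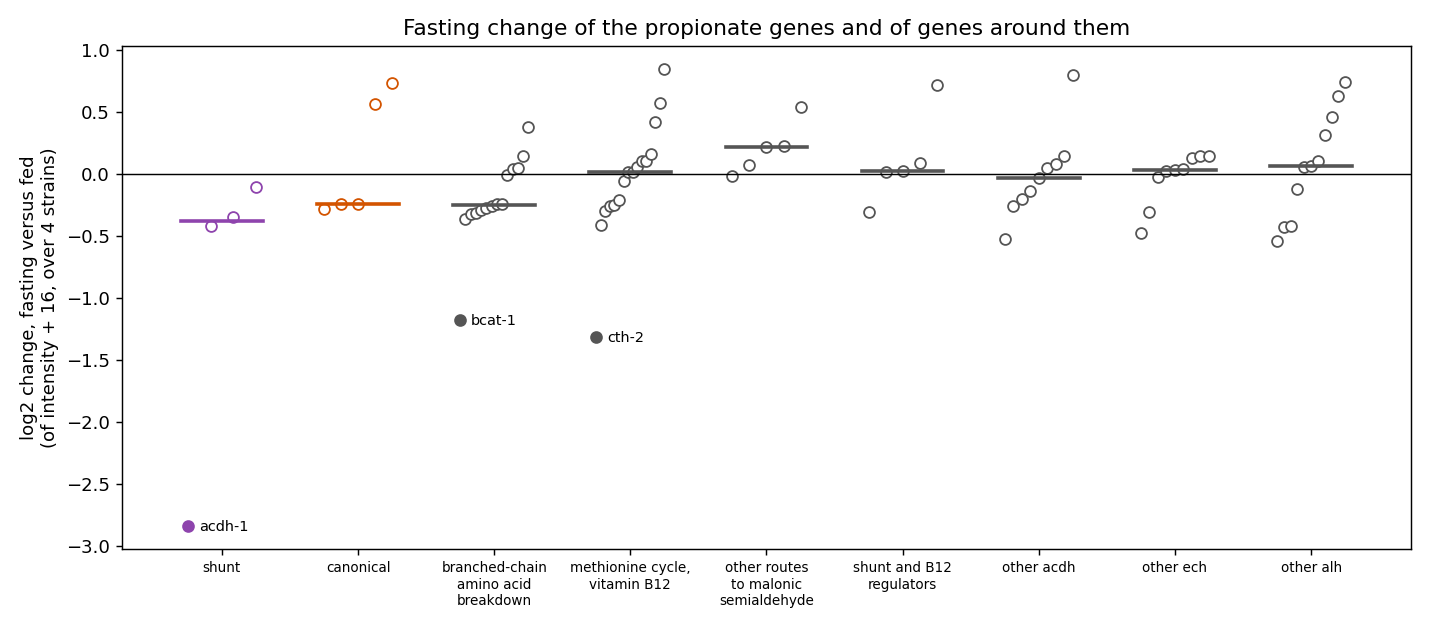
Log2 change of log2(intensity + 16), fasting versus fed over the 4 strains, of the members and of genes in 7 lists, with 1 point per gene, filled for an adjusted p under 0.05 by limma, and a bar at the median of each list. The 3 filled points are acdh-1 (-2.84), cth-2 (-1.31) and bcat-1 (-1.17).

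Across the 8 arrays, which share strains and foods, some members had patterns close to each other, given as a description. The 2 carboxylase subunits had a Pearson correlation of 0.96 (n = 8 arrays), and among 11973 other genes 7 were closer to pcca-1 than pccb-1 was, and 2 were closer to pccb-1 than pcca-1 was. The correlation of acdh-1 was 0.94 with hphd-1, 0.81 with ech-6 and -0.02 with alh-8, with 40, 482 and 5923 genes closer to acdh-1. That of ech-6 with hphd-1 was 0.68. That of mce-1 with mmaa-1 was 0.90, with 103 genes closer to mce-1. The genes alh-8 and mmcm-1 had no close partner among the members. Their highest correlation was 0.53, with each other, with 1784 genes closer to alh-8 and 1453 closer to mmcm-1. Between the routes, acdh-1 had -0.43 with pcca-1 and -0.33 with pccb-1, and 0.63 with mmaa-1. The 8 genes with the highest mean correlation with the 4 shunt genes, between 0.68 and 0.72, were cyp-35D1, col-174, F25B4.8, clec-115, unc-95, irg-5, epic-2 and ZK84.1. Their correlations were 0.66 to 0.95 with acdh-1, ech-6 and hphd-1 but only 0.08 to 0.41 with alh-8. Most of these genes were dim on all arrays. The widest range was that of irg-5, an infection response gene, from 19.7 in fasting drsh-1 to 272 in fed wild type. Since these genes were picked for their likeness over the same arrays, no test of their changes with food or strain is given.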

How the data were processed

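The table the authors deposited gives 1 linear intensity for each of 22625 probe sets on each of 8 arrays. Labelling was by biotin and 3' in vitro transcription, per the labels' protocols. The summarisation and normalization behind these values are not given in the sources used. The close array medians show a common level, and background treatment is unknown. The values were used as deposited. Beside 77 control probe sets, which were dropped, there were 22548, of which 20766 had 1 gene symbol in the platform annotation, 887 several and 895 none, and symbols were updated by Entrez number to RefSeq names of WBcel235. Probe sets that match near-identical genes can mix signals. Probe sets with the lowest 30% of mean intensity (below 15.8) were left out. The rest were fitted as log2(intensity + 16) with limma 3.58.1 in R 4.3.3 (mean-variance trend, strain plus food, 3 residual degrees of freedom), and p-values were adjusted by Benjamini-Hochberg over all 15783. Alternatives changed the filter, normalization, pseudocount, array weights, block and arrays used. In simulated data 2-fold changes were recovered in 82% of cases for fasting (6 false calls among 149) and in 36% for drsh-1, and 4-fold changes in 100% and 84%. The simulated noise was independent between probe sets and arrays, each change was equal on all arrays it was added to, and no array deviated as a whole. The fasting daf-16 array stood apart on control probe sets, so these rates may not hold for the real arrays. Named genes were all members, up to 4 of each list by call and size of change, and the 8 genes with the highest mean correlation with the shunt genes. Others were named outside that rule, among them hach-1, metr-1, pmp-5, mtrr-1 and some of the tissue markers. Members and lists were chosen with earlier results of these data known.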

Additional observations from a re-analysis of the deposited data

How the results depend on the processing

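Of the 9 genes, 1 (acdh-1) was called for fasting, and the number was 1 without the filter, under quantile normalization and with a pseudocount of 64, where the log2 change of acdh-1 ran from -2.84 to -2.35. It was 5 under limma's arrayWeights (acdh-1, ech-6, hphd-1, pcca-1 and pccb-1), 0 without the strain block, and 0 to 3 when 1 strain pair was left out. The weights follow how far a strain departs from the mean change, and were 3.56 for ain-1 and 0.42 for drsh-1 and daf-16. For drsh-1 against wild type the number was 1, with 3 under quantile normalization, 0 under arrayWeights, 0 without the food block and 0 to 3 with 1 array left out. Without the fed drsh-1 array the 1 call was pcca-1. For ain-1 and daf-16 it was 0 throughout. The test of 1 strain's response against the other 3 gave 0, and 1 under arrayWeights (pcca-1 in drsh-1). In that fit for drsh-1, 740 of all 15783 probe sets were called higher and 1273 lower, so calls were common. Changes of at least 2-fold numbered 7 of 36, with 6 under quantile normalization and 5 with a pseudocount of 64. The difference between the median of the shunt and that of the canonical pathway was -0.14, and -0.15, -0.14 and -0.06 under quantile normalization, a pseudocount of 64 and averaged probe sets. Small uncalled values changed sign: mmaa-1 in ain-1 was -0.0025 under quantile normalization, and with 1 array left out it ran from -0.14 to 0.15, ech-6 in ain-1 from -0.22 to 0.24, mce-1 in ain-1 from -0.25 to 0.17, mmcm-1 in drsh-1 from -0.36 to 0.063, and in daf-16 mmaa-1 from -0.44 to 0.23 and ech-6 from -0.13 to 0.33. Over all probe sets, 64 were called higher and 451 lower in fasting, against 3692 and 2668 under arrayWeights, 2 and 115 without the strain block, and 2360 and 1406 without the drsh-1 pair. For drsh-1, 1269 and 590 were called, against 473 and 93 without the food block and 104 and 47 without the fasting wild-type array. For ain-1, 1 and 7 were called, against 262 and 231 under arrayWeights. The cause of these shifts was not tested. The strain pairs of fasting and fed arrays were the block of the fasting test throughout, except where the block was dropped. The labels give no replicate numbers, so there was no further pairing to fit. With 8 arrays, precision is limited throughout.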
